A study of Mus musculus with 6 samples.

Results

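The cytosolic ribosomal protein genes were examined at their promoters in 2 mouse lymphoid progenitor cell lines. Members were chosen by symbol alone, as every protein-coding gene of GENCODE vM21 (GRCm38) named Rpl or Rps followed by a digit, together with Rplp0, Rplp1, Rplp2 and Rpsa. The S6 kinase genes (Rps6k) and Rps19bp1, which encode no ribosomal protein, were left out. This rule found 91 of 21951 protein-coding genes, of which 46 encode canonical proteins of the large subunit and 31 canonical proteins of the small subunit. The other 14 are paralogs, retrocopies or further annotated copies. The series measured trimethylation of lysine 4 on histone H3 (H3K4me3) by ChIP-seq, with 2 ChIP libraries and 1 input library per line. Scid.adh.2C2 is a pro-T cell line derived from a tumour of CB17 mice carrying the Prkdc scid mutation, and 230-238 is a progenitor B cell line transformed with the Abelson virus. Each group is thus 1 transformed or tumour-derived line, and the labels name no treatment. For each line 1 peak list was deposited that combines both ChIP libraries, with 15513 peaks in Scid.adh.2C2 and 19604 in 230-238. Neither list gives values per library or read counts. Sequencing depth and the variation between libraries are therefore not known, no difference between the lines was tested, and a missing peak means only that nothing at that promoter was retained by the authors' filters.

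The ribosome is built from a large and a small subunit, each an RNA core wrapped by many small proteins that must be made in matched amounts. Growing lymphoid progenitors transcribe the genes of these proteins heavily from short promoters rich in CpG. The messenger RNAs of vertebrate ribosomal proteins typically begin with a cytosine followed by a run of pyrimidines, the 5′ terminal oligopyrimidine (TOP) motif, through which mTOR signalling controls their translation. H3K4me3 is deposited by SET1/COMPASS and MLL complexes around the start sites of active genes and usually falls on the nucleosomes downstream of the start. Ribosomal proteins also have many processed copies in the mouse genome, most of them pseudogenes.

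The starts of 8 promoters that the results below turn on are shown first. Rps18, Rpl35, Rpl41 and Rps15 are 4 of the members with a peak in 1 line only, Rplp2 and Rpl38 are those whose rank differed most between the lines, Rps6 was among the most enriched in 230-238, and Rpl35a was the least enriched in Scid.adh.2C2. Each run holds 60 bases before and 30 bases from the RefSeq start onward, on GRCm38.p6, written 5′ to 3′ on the gene's strand. Capitals mark the longest uninterrupted run of at least 4 pyrimidines lying within 5 bases of the start.
Rps18, chr17:33955636-33955725, minus strand: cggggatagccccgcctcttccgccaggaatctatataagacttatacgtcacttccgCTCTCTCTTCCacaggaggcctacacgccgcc
Rpl35, chr2:39005102-39005191, minus strand: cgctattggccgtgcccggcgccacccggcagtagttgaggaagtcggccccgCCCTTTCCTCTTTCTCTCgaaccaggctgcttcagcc
Rpl41, chr10:128549139-128549228, minus strand: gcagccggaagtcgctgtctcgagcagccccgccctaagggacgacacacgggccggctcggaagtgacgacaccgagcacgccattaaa
Rps15, chr10:80292371-80292460, plus strand: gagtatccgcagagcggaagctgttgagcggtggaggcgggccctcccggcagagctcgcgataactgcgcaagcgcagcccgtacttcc
Rplp2, chr7:141447591-141447680, plus strand: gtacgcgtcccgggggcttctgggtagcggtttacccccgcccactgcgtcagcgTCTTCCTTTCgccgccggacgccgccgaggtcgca
Rpl38, chr11:114668520-114668609, plus strand: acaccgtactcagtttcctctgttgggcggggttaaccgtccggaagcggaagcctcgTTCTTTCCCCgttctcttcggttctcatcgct
Rps6, chr4:86857338-86857427, minus strand: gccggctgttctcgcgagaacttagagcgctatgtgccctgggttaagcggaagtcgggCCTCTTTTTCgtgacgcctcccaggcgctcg
Rpl35a, chr16:33056422-33056511, plus strand: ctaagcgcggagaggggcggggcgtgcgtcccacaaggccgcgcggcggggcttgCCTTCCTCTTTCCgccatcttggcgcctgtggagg
The run measured 18 bases at Rpl35, 13 at Rpl35a, 11 at Rps18 and 10 each at Rplp2, Rpl38 and Rps6. No such run lay at the RefSeq starts of Rpl41 and Rps15. At the GENCODE start of Rps15, a little farther downstream, a run of 11 bases was found.

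Nearly all canonical ribosomal protein genes carried H3K4me3 in both lines. Marked genes were those with a peak that reached, by 1 bp or more, into the 2500 bp on either side of any annotated transcription start site (TSS) of the gene. In Scid.adh.2C2, 79 of the 91 members were marked (86.8%), against 45.5% of all protein-coding genes. In 230-238 the count was 76 (83.5%), against 48.2% of all protein-coding genes. A total of 75 members were marked in both lines, as were 42.2% of all protein-coding genes. Of the remaining members, 4 were marked in Scid.adh.2C2 only (3.28% of all protein-coding genes), 1 in 230-238 only (5.96%) and 11 in neither line (48.6%). The members thus lay above the share of all genes in both lists, and most of those without any peak were the copies.

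By subunit, all 46 canonical genes of the large subunit were marked in Scid.adh.2C2 and 43 in 230-238. Of the 31 genes of the small subunit, 29 were marked in each line, 28 of them in both. Among the 14 paralogs and further copies only Rpl7l1, Rpl22l1, Rpl36al and Rps27l were marked, all of them in both lines. The 10 without a peak in either line were Rpl3l, Rpl10l and Rpl39l, which are paralogs with expression restricted to muscle or testis, and the copies Rpl9-ps1, Rpl9-ps6, Rpl10-ps3, Rpl36a-ps1, Rpl36-ps4, Rps12-ps3 and Rps27rt. All marked members reached at least 10-fold enrichment, as did 9689 of 9980 marked protein-coding genes in Scid.adh.2C2 and 10223 of 10570 in 230-238. In Scid.adh.2C2 the peaks lay close to the starts, since for 78 of the 79 marked members a peak covered an annotated TSS. For the other, Rpl27, a peak began 142 bp away, and in 230-238 a peak covered an annotated TSS of all 76. Just outside the window lay Rpl3l, a paralog of Rpl3 used in muscle, with the nearest peak 3127 bp away in Scid.adh.2C2 and 3019 bp away in 230-238. The other genes of protein synthesis examined beside the members were mostly marked as well. Fau and Rack1, which encode ribosomal proteins under other symbols, and all 15 translation factors had peaks in both lines. Of 20 genes of ribosome assembly 19 had peaks in both lines, and Polr1a, the largest subunit of RNA polymerase I, had one in 230-238 only. Of the 78 genes of the mitochondrial ribosome 76 were marked in both lines, Mrpl21 in Scid.adh.2C2 only and Mrps23 in neither.

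**Figure D1:**
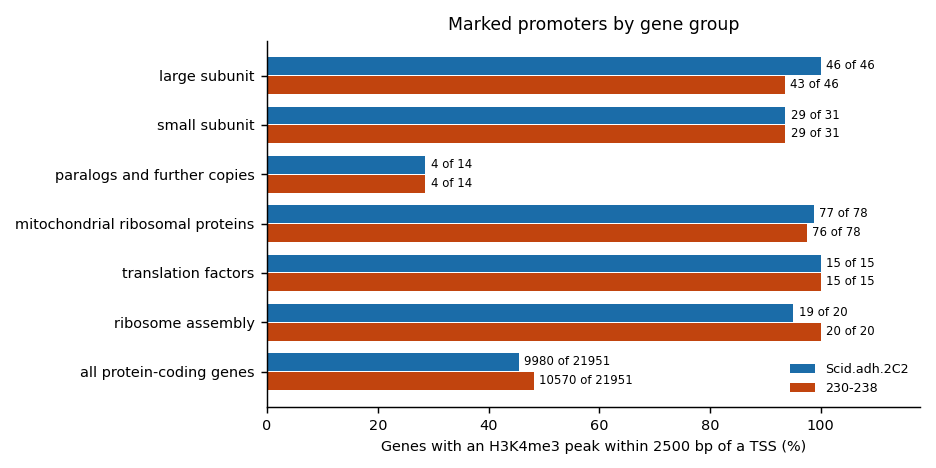
Percent of genes with an H3K4me3 peak within 2500 bp of a TSS, on the horizontal axis, for each gene group (rows), with blue bars for Scid.adh.2C2, orange bars for 230-238 and the counts beside the bars. The canonical ribosomal protein genes lie between 93.5% and 100% in both lines, and the paralogs and further copies at 28.6%.

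A total of 5 canonical members had a peak in 1 line only, ranking from the 22.6th percentile of fold for Rplp1 to the 99.5th for Rps18 among marked protein-coding genes. Rps18 encodes a protein of the head of the small subunit and lies on chromosome 17 from 33951999 to 33956001. In Scid.adh.2C2 its peak reached from 33954071 to 33957027 with a fold enrichment of 45.4, among the highest of this list. In 230-238 the nearest peak was 10504 bp from a TSS of Rps18. Vps52, a vesicle tethering gene that is transcribed in the other direction from the same promoter region, shared the peak in Scid.adh.2C2 and was likewise without a peak in 230-238.

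Rpl35, a protein near the exit of the nascent chain tunnel, had a 31.2-fold enriched peak in Scid.adh.2C2, and in 230-238 the nearest peak lay 4550 bp away. The Scid.adh.2C2 peak of Rpl35 also covered a start of Arpc5l. Rpl41, the shortest of the ribosomal proteins, had a 29.02-fold enriched peak in Scid.adh.2C2 and none within 12016 bp in 230-238. Rplp1, an acidic protein of the stalk that recruits the translation GTPases, had a 21.1-fold enriched peak in Scid.adh.2C2, and the nearest peak in 230-238 was 30188 bp away. These 3 genes of the large subunit and Rps18 were the members marked in the pro-T line only. Rps15, a protein of the head of the small subunit, showed the opposite order, with a 22.2-fold enriched peak in 230-238 and the nearest peak 25888 bp away in Scid.adh.2C2.

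The regions around these genes were not devoid of peaks. Of the 17 protein-coding genes with a reference TSS within 100000 bp of Rps18, 14 were marked in Scid.adh.2C2 and 12 in 230-238, and Vps52 and B3galt4 made the difference. Of the 9 neighbours of Rpl41, 8 were marked in each line, but Zc3h10 in Scid.adh.2C2 only and Ikzf4 in 230-238 only. The start of Zc3h10 lay in the peak of Rpl41 itself. Of the 4 neighbours of Rpl35, 4 were marked in Scid.adh.2C2 and 3 in 230-238. Of the 11 neighbours of Rps15, 8 were marked in Scid.adh.2C2 and 10 in 230-238. The single neighbour of Rplp1 was marked in both lines.

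Reads from sequences present more than once in the genome cannot be placed with certainty, which bears on genes with processed copies. Within 500 bp of the reference TSS, the share of 36-base words that occur once in the genome had a median of 96.3% over the members and 100% over all protein-coding genes. It was 98.9% at Rps18, 96.3% at Rps15, 95.2% at Rpl41, 93.7% at Rpl35 and 89.96% at Rplp1. Among the 10 unmarked paralogs and copies it ranged from 49.7% at Rpl10-ps3 to 100% at Rpl3l and Rpl39l, with 84.7% at Rpl9-ps1 and 96.3% at Rpl36-ps4, and its median over all 14 paralogs and copies was 90.5%. A low share was also found at marked promoters, with 60.4% at Rps29, 70.6% at Rpl24 and 73.2% at Rpl37a. The 36-base words are shorter than the reads the paper describes, so these shares are not the shares of reads that could be placed. The part of sequence copies in the missing peaks was not tested.

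Fold enrichment of the members was above the middle of each list but far from uniform. The fold enrichment is the ratio of ChIP signal to background at the summit as given by the peak caller, taken here from the highest promoter peak of a gene. In Scid.adh.2C2 it ran from 11.9 to 46.0 with a median of 30.02 over the 79 marked members, beside a median of 27.1 over the 9980 marked protein-coding genes. In 230-238 it ran from 15.3 to 34.4 with a median of 24.0 over 76 members, beside 21.7 over 10570 genes. Fold values of different lists are not on a common scale, so that each gene was also given its percentile among the marked protein-coding genes of the same list. The median percentile of the members was 64.8 in Scid.adh.2C2 and 65.9 in 230-238. In Scid.adh.2C2 33 members lay above the 75th percentile and 11 below the 25th, and in 230-238 30 and 5. When genes were ranked by −log10 q instead, the median percentile was 82.6 and 76.6.

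The genes of the small subunit ranked higher in the middle than those of the large subunit in both lists. Their median percentile was 86.1 in Scid.adh.2C2 and 73.3 in 230-238, beside 60.9 and 57.5 for the large subunit. The quartiles overlapped widely, from 40.1 to 91.4 for the small subunit and from 41.1 to 86.4 for the large subunit in Scid.adh.2C2. The mitochondrial ribosomal proteins lay at 69.5 and 58.7, and the translation factors, among them Eef1a1 and Eef2 of peptide elongation, at 66.6 and 75.3.

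Among the 5 most enriched members in Scid.adh.2C2 were Rpl17 with a fold of 46.0 and Rpl31 with 43.9, both of the large subunit. Rps18, described above, and Rps25, a protein used by several viral internal ribosome entry sites, with 40.4, were also among these 5. At the other end stood only genes of the large subunit, Rpl35a with 11.9, Rpl37a with 15.2, Rpl10a with 16.2, Rplp2 with 16.4 and Rpl27 with 17.6. The promoter of Rpl35a, one of the genes mutated in Diamond-Blackfan anaemia, is shared with the divergent gene Iqcg, and its peak was wide (3567 bp) in spite of the low fold.

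In 230-238 the 5 highest were Rplp2 with 34.4, Rpl23 with 34.2, Rps6, the substrate of the S6 kinases, with 33.9, Rps25 with 32.9 and Rpl7 with 31.8. The 5 lowest were Rps16 with 15.3, Rpl29 with 15.6, Rpl38 with 16.4, Rpl19 with 16.9 and Rpl28 with 17.0, and these were the 5 members below the 25th percentile of the list. Of the 5 highest in each line, Rps25 was the one found in both. A few peaks passed the authors' reproducibility filter with less than the highest score of 1000. The score of the highest peak was lower for 7 members in Scid.adh.2C2, among them Rps3 with 567, and for 4 members in 230-238, Rpl21 with 579, Rps3 with 801, Rplp2 with 922 and Rpl3 with 934.

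The ranks of the members by fold were only weakly related between the lines. Over the 75 members marked in both lines Pearson's r of the fold was 0.0993 and Spearman's rho 0.104, beside 0.301 and 0.277 over the 9261 protein-coding genes marked in both. These correlations run across genes, which are not independent replicates and share base composition and the peak caller, and they are descriptions. The median absolute difference of percentile between the lines was 28.0 for the members and 21.3 for all genes.

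Rplp2, the partner of Rplp1 in the acidic stalk, moved the most, with a percentile of 10.3 in Scid.adh.2C2 and 99.0 in 230-238. Its peak hardly changed in place, from 141446687 to 141449885 in the first list and from 141446634 to 141450431 in the other. Rpl30, which binds RNA through a kink-turn, stood at 24.2 and 96.5, and Rps26, a protein at the mRNA exit of the small subunit, at 22.0 and 93.8. The opposite order was found for Rpl38, needed for axial skeletal patterning in mice, with 93.9 and 20.1. Rpl14 stood at 95.1 and 26.4, and Rps20 at 93.3 and 35.4. Of the stalk genes, Rplp0, the base of the stalk, stood at 76.2 and 26.2, and Rplp1 at 22.6 with no peak in 230-238. Of the stalk genes only Rplp2 ranked higher in 230-238.

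**Figure D2:**
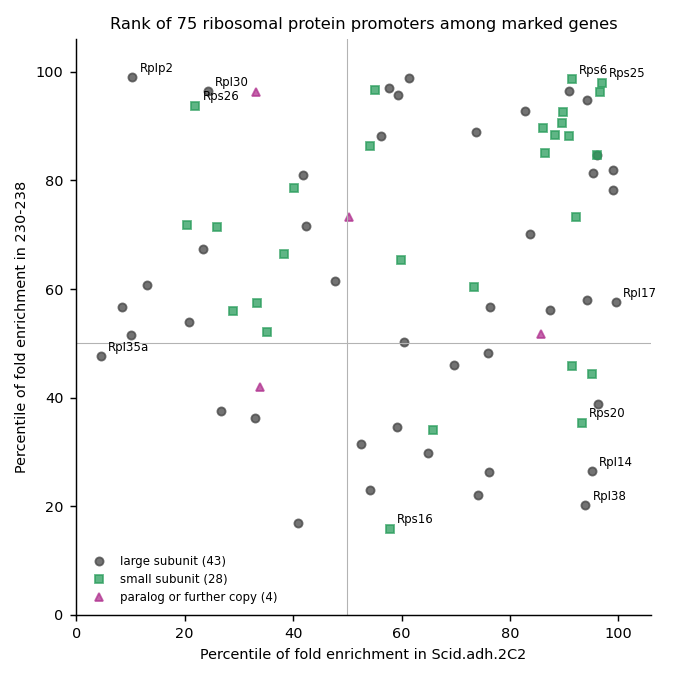
Percentile of fold enrichment among marked protein-coding genes in Scid.adh.2C2 (horizontal axis) and 230-238 (vertical axis) for the 75 members marked in both lines, with a point per gene, shapes for the class of the member and grey lines at the median of all genes. The points spread over the whole square, with Rplp2 at 10.3 and 99.0 and Rpl38 at 93.9 and 20.1 near opposite corners.

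The peaks of the members were wide, and their rank by width stood farther from the middle of the lists than their rank by fold. In Scid.adh.2C2 the highest promoter peak of a member was 2949 bp wide in the median, beside 2091 bp over all marked protein-coding genes and 1920 bp over the mitochondrial ribosomal proteins. In 230-238 these medians were 3480.5 bp, 2278 bp and 2148.5 bp. Wide peaks were also found at other genes of protein synthesis, with medians of 2730 bp and 3013 bp for the translation factors and 2644 bp and 3063 bp for ribosome assembly. Rack1 had peaks of 4460 bp and 5435 bp. Fau differed between the lists, with 2635 bp in Scid.adh.2C2, at the 73.9th percentile of width, and 1655 bp in 230-238, at the 24.2th. Neither of these peaks covered the reference TSS of Fau. The median percentile of width was 82.4 in Scid.adh.2C2 and 83.4 in 230-238, and 60.8% and 60.5% of the marked members lay above the 75th percentile of width of their list, as did 66.7% and 46.7% of the translation factors. Large and small subunits were alike in this, with 2960.5 bp and 2949 bp in Scid.adh.2C2 and 3475 bp and 3552 bp in 230-238. The difference in median between members and all genes stayed when peaks within 500 bp of each other were joined, with 3163 bp against 2268.5 bp in Scid.adh.2C2 and 3843 bp against 2600.5 bp in 230-238.

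The widest peaks in Scid.adh.2C2 were those of Rpl7 with 4847 bp, Rps15a with 4624 bp and Rps3a1 with 4478 bp. That of Rpl7 also covered a start of Rdh10. In 230-238 the widest was that of Rpl23a, a protein of the tunnel exit that contacts the signal recognition particle, with 8670 bp. It also covered starts of Nek8 and Tlcd1. The next widest was that of Rpl13a with 7227 bp, which likewise covered a start of another protein-coding gene. These widths are therefore not those of a single promoter. The narrowest were Rpl27 with 366 bp, Rpsa, also known as the laminin receptor precursor, with 763 bp and Rpl3 with 790 bp in Scid.adh.2C2, and, among others, Rpsa with 639 bp and Rps16 with 735 bp in 230-238. Rpsa was among the narrowest in both lists. Rpl27 and Rpl3 were narrow in Scid.adh.2C2 only, with 2964 bp and 4241 bp in 230-238, and Rps16 was narrow in 230-238 only, with 2605 bp in Scid.adh.2C2. In all these narrow cases the highest peak lay upstream of the reference TSS, and except at Rpl27 in Scid.adh.2C2 it was 1 of 2 peaks in the window. Counting both peaks, Rps16 had 2574 bp covered in 230-238, close to the 2605 bp in Scid.adh.2C2, Rpsa had 3117 bp and 3670 bp in the 2 lines, and Rpl3 had 2206 bp in Scid.adh.2C2 and 4919 bp in 230-238. The narrow width of Rps16 and Rpsa is thus that of the higher of 2 peaks and not of the whole marked area.

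Of the 75 members marked in both lines, 58 (77.3%) had the wider peak in 230-238, as had 68.3% of all protein-coding genes marked in both. The median difference, Scid.adh.2C2 minus 230-238, was -428 bp for the members and -200 bp for all genes. Widths followed each other between the lines more than folds did, with r of 0.449 and rho of 0.453 over the members and 0.546 and 0.581 over all genes, again as a description across genes.

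The wide peaks reached into the genes. The reference TSS of a gene was the start of its principal transcript, and distances are positive downstream. In Scid.adh.2C2 the median member's peak extended 673 bp upstream and 2043 bp downstream of it, beside 740 bp and 1338 bp over all marked genes. In 230-238 the extents were 669.5 bp and 2672.5 bp, beside 747 bp and 1537 bp. The peak reached farther downstream than upstream for 92.4% of the members in Scid.adh.2C2 and 89.5% in 230-238, against 75.2% of all marked genes in each list. These extents are those of the highest peak alone, and the reach of joined peaks was not computed. For the highest peak the upstream reach was thus close to that of other genes, and the added width lay on the transcribed side. This was not particular to the members. The translation factors reached 1936 bp downstream in Scid.adh.2C2 and 3007 bp in 230-238, with 80% and 100% reaching farther downstream than upstream. For ribosome assembly the downstream extents were 1813 bp and 2132 bp, with 89.5% and 80%.

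**Figure D3:**
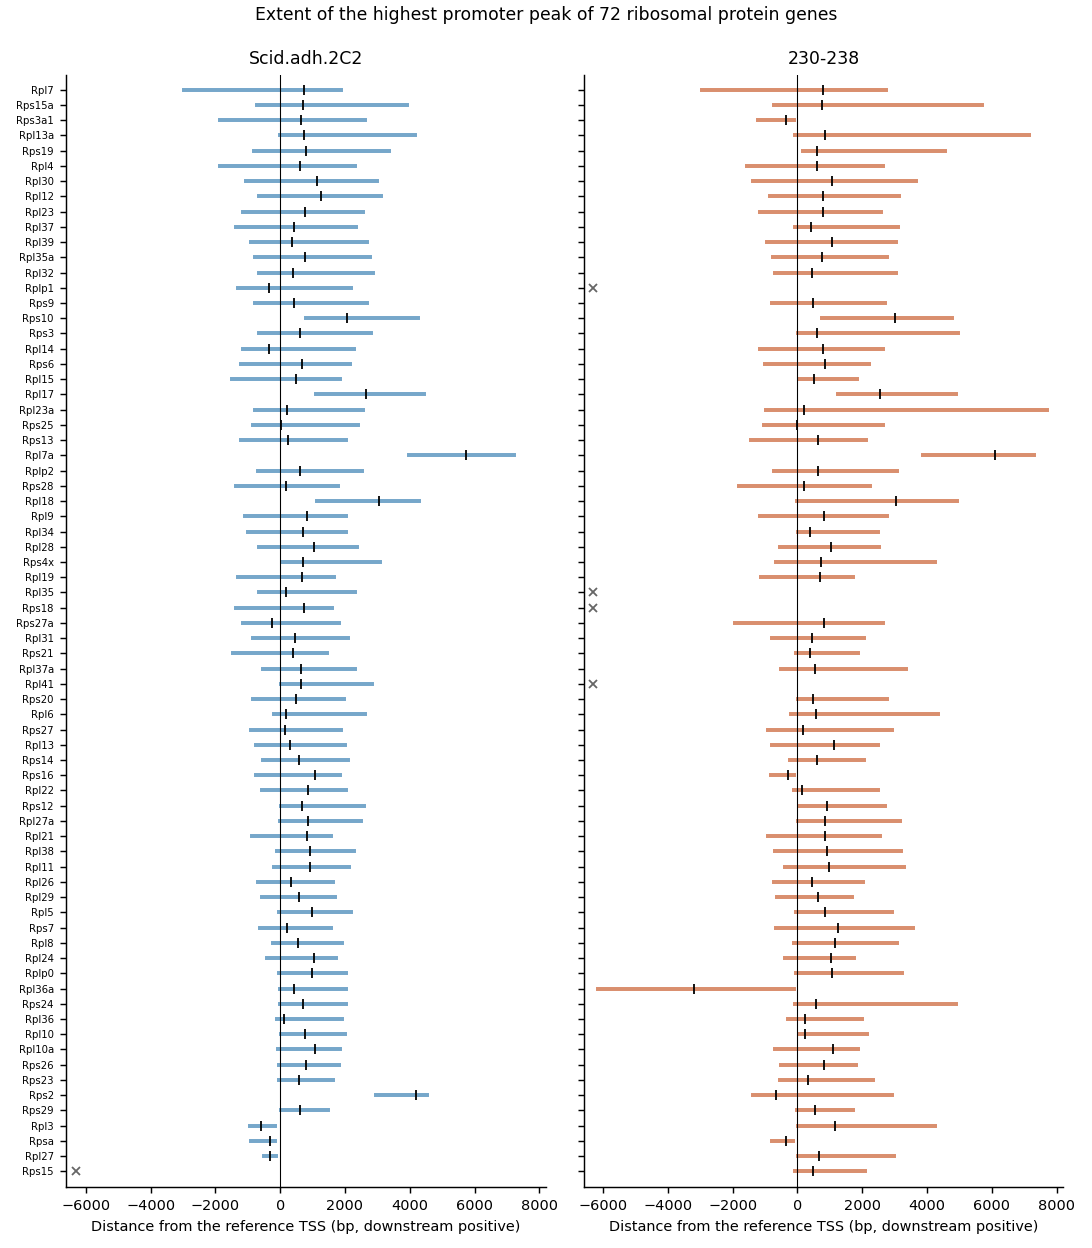
Extent of the highest promoter peak of 72 canonical ribosomal protein genes in Scid.adh.2C2 (left) and 230-238 (right), as distance in bp from the reference TSS with downstream positive, with bars for the peak, black ticks for the summit and grey crosses for genes without a peak, in the order of peak width in Scid.adh.2C2. Most bars reach farther to the right of the start than to the left, and crosses mark Rps15 in the left panel and Rplp1, Rpl35, Rps18 and Rpl41 in the right panel.

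Ribosomal protein genes are short, and the marked area took up much of them. The median length of a marked member was 3368 bp in Scid.adh.2C2, beside 22781 bp over all marked genes. Promoter peaks covered 71.9% of the gene body in the median in Scid.adh.2C2 and 83.2% in 230-238, beside 6.12% and 7.51% over all marked genes and 18.5% and 19.3% over the mitochondrial ribosomal proteins. The whole gene was covered for 7 members in Scid.adh.2C2 and 17 in 230-238, among them Rpl13a, Rpl28, Rpl36, Rps21 and Rps27 in both. Longer members such as Rpl11, which binds Mdm2 when ribosome assembly is disturbed, were covered to 8.58% of 25164 bp in Scid.adh.2C2 and to 26.2% in 230-238.

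The summit, the position of highest signal in the peak, lay downstream of the reference TSS for 88.6% of the marked members in Scid.adh.2C2 and 86.8% in 230-238, beside 72.7% and 72.3% of all marked genes. Its median offset was 625 bp in Scid.adh.2C2 and 638.5 bp in 230-238, beside 276 bp and 352 bp over all marked genes and 302 bp and 293 bp over the mitochondrial ribosomal proteins. For the translation factors the offset was 423 bp and 588 bp, with the summit downstream for 66.7% and 93.3%. For ribosome assembly the offset was 386 bp and 404 bp, with 84.2% and 75%. The offset of the members depended on the start used. Measured from the nearest annotated TSS, of which a marked member had 6 in the median, the offset of the members fell to 197 bp and 178 bp, beside 146 bp and 185 bp over all genes, so that in 230-238 the median of the members was no longer the higher one. Measured from the RefSeq start nearest the reference TSS, available for 60 and 58 marked members, it was 594 bp and 572.5 bp. This start was not chosen by its distance from the summit, so the 2 alternatives are unlike measures.

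Among the farthest summits were those of Rpl7a at 5732 bp and Rps2 at 4185 bp downstream in Scid.adh.2C2, and those of Rpl7a at 6094 bp downstream and Rpl36a at -3180 bp (upstream) in 230-238. At each of these the highest peak in the window lay outside the gene and covered the start of a neighbour, namely Surf1 and Surf2 beside Rpl7a, Ndufb10 beside Rps2 and Btk, the kinase of B cell receptor signalling, beside Rpl36a. The peak with the summit nearest the start was lower, with a fold enrichment of 19.0 against 23.6 at Rps2 in Scid.adh.2C2. In 230-238 it was 22.2 against 22.9 at Rpl7a and 17.9 against 24.7 at Rpl36a, the last with its summit 281 bp downstream of the start. In each line the highest peak covered none of a member's own starts for 6 members. The summits of Rps25 lay almost on the reference TSS, at 34 bp and -6 bp. The RefSeq start of Rps25 lay farther downstream, at 44407714 against 44407139 for the reference TSS.

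**Figure D4:**
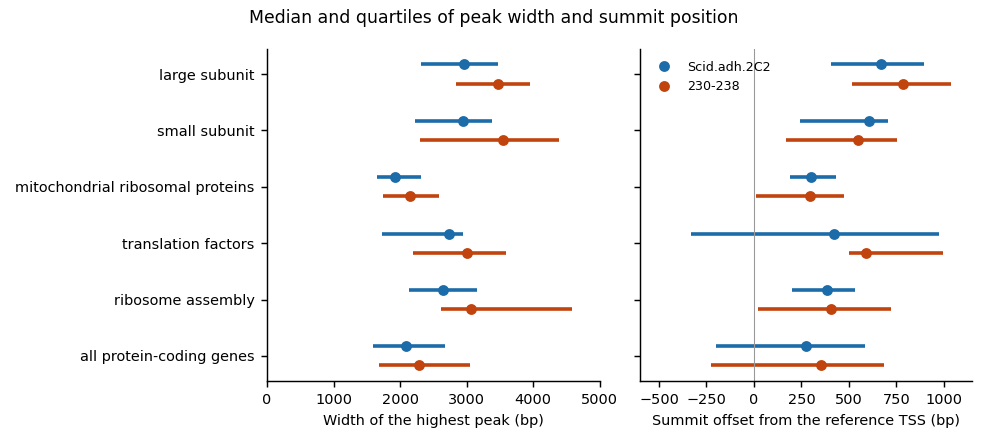
Median (points) and quartiles (lines) of the width of the highest promoter peak (left, bp) and of the summit offset from the reference TSS (right, bp, downstream positive) by gene group in Scid.adh.2C2 (blue) and 230-238 (orange). Of the groups drawn, both subunits have the highest median width, from 2949 bp to 3552 bp, followed by the translation factors and ribosome assembly, and the median width of all protein-coding genes is 2091 bp and 2278 bp.

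At several members the start itself lay in a gap between peaks. In Scid.adh.2C2, 24 of the 79 marked members had 2 or more peaks in the promoter window, beside 2575 of 9980 marked protein-coding genes. In 230-238 these counts were 36 of 76 and 3514 of 10570. Of the 15 translation factors 9 had 2 or more peaks in each line. The reference TSS lay between an upstream and a downstream peak for 7 members in Scid.adh.2C2 (8.86%) and for 11 in 230-238 (14.5%), beside 3.89% and 6.52% of all marked genes. The gap measured 153 bp in the median in Scid.adh.2C2 and 140 bp in 230-238. Rpl10, which joins the subunit last in the cytoplasm, had gaps of 123 bp and 188 bp, Rpsa of 193 bp and 203 bp, Rpl27a of 153 bp and 185 bp and Rps12 of 120 bp and 125 bp. These 4 genes had the gap in both lists. At Rpl3 and Rpl27 only the upstream side had a peak in Scid.adh.2C2, 147 bp and 142 bp away, while in 230-238 both sides did, with gaps of 177 bp and 162 bp.

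Some members shared their promoter with another protein-coding gene. A gene transcribed in the other direction started within 1000 bp upstream of 12 members (13.2%), beside 9.2% of all protein-coding genes and 33.3% of the mitochondrial ribosomal proteins. The pairs were Rpl4 with Zwilch, Rpl7a with Med22, Rpl9 with Lias, Rpl12 with Lrsam1, Rpl15 with Nkiras1, Rpl18 with Sphk2, Rpl35a with Iqcg, Rpl36al with Mgat2, Rps18 with Vps52, Rps25 with Trappc4, Rps27 with Rab13 and Rps28 with Ndufa7. Except for Rpl7a and Med22, both genes of a pair had the same highest peak wherever they were marked. Their H3K4me3 could therefore not be assigned to one of the genes. This limit was not confined to the pairs. The highest peak covered a start of another protein-coding gene for 20 of 79 marked members in Scid.adh.2C2 (25.3%) and 19 of 76 in 230-238 (25%). The matching share over all protein-coding genes was not computed.

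Ribosomal protein introns also host small nucleolar RNAs, which guide the modification of ribosomal RNA. Of the members, 30 contained 58 annotated snoRNA genes, with up to 5 in Rpl4, and all 30 were marked in both lines. Among the marked canonical genes, the median width was 3250.5 bp with and 2906 bp without a snoRNA in Scid.adh.2C2, and 3692 bp and 3235.5 bp in 230-238. The median fold was 30.5 and 30.2 in Scid.adh.2C2, and 25.9 and 22.7 in 230-238. Hosts had the wider median in both lists, without a test.

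The choice by symbol did not use the promoter sequence, and its features are given beside those of all genes and of other genes of protein synthesis. Within 500 bp of the reference TSS the observed over expected ratio of CpG had a median of 0.789 over the 91 members and 0.571 over all protein-coding genes, at a GC content of 56.4% and 55.2%. For the paralogs and further copies the ratio was 0.489, and it was 0.866 for the translation factors, 0.801 for ribosome assembly and 0.725 for the mitochondrial ribosomal proteins. An uninterrupted pyrimidine run of at least 8 bases, overlapping the 5 bases either side of the reference TSS, was found at 24 members (26.4%) and at 9.07% of all protein-coding genes, and at 33.3% of the translation factors, 5% of the ribosome assembly genes and 6.41% of the mitochondrial ribosomal proteins. RefSeq promoters were available for 65 members. In these, 14 members (21.5%) had a start with a cytosine as the first base and at least 4 pyrimidines after it, as the TOP motif has, beside 2.71% of all matched genes and 0 of 69 mitochondrial ribosomal proteins. They included Rpl14, Rpl15, Rpl28, Rps10, Rps15a and Rps27 and, of the sequences printed above, Rps18, Rpl35, Rplp2, Rpl38, Rps6 and Rpl35a. This definition was chosen after the sequences had been seen. The share rests on the exact base of the annotated start, and starts of transcription were not measured. At Rps15, as given above, a pyrimidine run lay at the GENCODE start but not at the RefSeq start.

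Among the motifs searched between 250 bases before and 50 after the reference TSS, the ETS core CTTCCGG or its reverse complement CCGGAAG was found at 26.4% of the members and 11.2% of all protein-coding genes. It was as frequent or more so in related groups, with 37.2% of the mitochondrial ribosomal proteins, 40% of the ribosome assembly genes and 26.7% of the translation factors. With the RefSeq starts the shares were 40% of the members, 37.7% of the mitochondrial ribosomal proteins and 13.4% of all matched genes. Of the printed sequences those of Rpl38 and Rpl41 contain CCGGAAG. The YY1 core AAGATGGC, or GCCATCTT on the other strand, was found at 6.59% of the members, 14.1% of the mitochondrial ribosomal proteins and 3.08% of all genes, and it follows the pyrimidine run of Rpl35a. The GC box GGGCGG or CCGCCC was about as frequent at the members (47.3%) as at all genes (45.4%), and TATAAA on the gene's strand was found at 6.59% of the members and 8.65% of all genes. With the RefSeq starts the GC box was found at 61.5% of the members, 49.3% of the mitochondrial ribosomal proteins and 51% of all matched genes. The YY1 core was then found at 9.23%, 17.4% and 3.64%, and TATAAA at 9.23%, 5.8% and 9.46%. No motif is contained in another, but matches can share bases. They are descriptions of letters in these windows and show no binding.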

How the data were processed

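H3K4me3 was measured by ChIP-seq in Scid.adh.2C2 and 230-238. As far as the labels and methods state, the authors trimmed reads (Trim Galore 0.6.7), mapped them to mm10 (GRCm38, Bowtie2 2.4.4), called narrow peaks against input (MACS2 2.2.7.1, q threshold 0.05) and kept the optimal set at an irreproducible discovery rate (IDR) of 0.05, which combines both replicates. The deposited score is the IDR score, the deposited ratio is the fold enrichment over background, and the deposited −log10 p and −log10 q are those of the peak caller. All were used as the authors gave them, within a list. The lowest IDR score was 540 in both lists.

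All peaks lay within the chromosome lengths of the GRCm38.p6 reference, and TSSs came from GENCODE vM21. The reference TSS was that of the APPRIS principal transcript (the longest of several), otherwise the most upstream one. A gene's peak was its highest by fold. Sequences were read from RefSeq promoters of GRCm38.p6, which matched 65 members. Samples were grouped by the labels, which spell the first line both Scid.adh.2C2 and Scid.ahd.2C2. Nothing was tested, since each line has 1 list. On simulated data 100% of 1008 promoters with a planted peak and 0% of 992 with a peak just outside the window were called marked. The window rule fixes both outcomes, so this checks the code alone and not the assignment of peaks near other genes. Python 3.11.15, numpy 2.4.6, pandas 2.3.3 and matplotlib 3.10.9 were used.

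Members and gene lists were chosen with earlier results of these data known. Named genes were those without a peak in a line, the 5 highest and lowest folds, the 3 widest and narrowest peaks, the 3 farthest summits in each line and the 3 largest differences of percentile in each direction. Genes outside this rule (Rpl10, Rpl11, Rpl24, Rpl27a, Rplp0, Rps12, Rps29, members listed for a shared promoter, a start motif, full coverage or a low score, Surf1, Surf2, Ndufb10, Btk, Arpc5l, Rdh10, Nek8 and Tlcd1, and Polr1a, Zc3h10, Ikzf4, Mrpl21 and Mrps23) were chosen after their values were seen. A few genes that this rule names are not reported here.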

Additional observations from a re-analysis of the deposited data

How the results depend on the processing

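No replicate could be left out and no read depth is known, because the deposited lists combine the replicates. No paired analysis was possible because the lists carry no replicate values and no test was made. Counts of marked members were computed with windows of 1000 and 5000 bp, with peaks that cover a TSS, with peaks of at least 10-fold enrichment, with an IDR score of 1000, with lists of equal length, with the summit inside the window and with the reference TSS only. They stayed within 1.5 times of those reported, except that the members marked in 230-238 only, reported as 1, numbered 2 with peaks that cover a TSS (Rpl27 added) and 5 with an IDR score of 1000 (Rpl12, Rpl14, Rpl22 and Rps3a1 added). With no spread between replicates, a median was taken as moved when it changed by over 10%. The median fold changed by less. The median percentile by −log10 q was 82.6 (pro-T list) and 76.6 (progenitor B list). The median width in 230-238 was 3843 bp with peaks within 500 bp merged. From the nearest annotated TSS the median summit offset was 197 bp in the pro-T list and 178 bp in the progenitor B list, and 481 bp and 561 bp with the summit nearest the reference TSS. From RefSeq starts, an alternative chosen after seeing the data, it was 572.5 bp in 230-238, and the share of member promoters with the ETS core was 40%. The shares with the YY1 core, the GC box and TATAAA were then 9.23%, 61.5% and 9.23%. The cause of these changes was not tested.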
